A study of Drosophila melanogaster with 6 samples.

Results

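Long non-coding RNAs of the fly that lie between genes, or inside or across other genes, and that were measured by enough reads to be followed gene by gene are described here. The group holds 106 of the 17558 gene identifiers in the count table. Its members were chosen by name and level: the FlyBase symbol begins with "lncRNA:", the gene is neither roX1 nor roX2, and the mean raw read count over the 6 libraries is at least 100. The table holds 1797 genes with such a symbol, and 1689 of them fell under that mean. Just inside it lay CR42844 and CR46086, each with a mean raw count of 103.17, and CR32218 with 102.0. Just outside it lay CR46006 with 99.67, CR43627 with 99.0 and CR45256 with 98.5.

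The data are 3 RNA sequencing libraries from CR11538-overexpressing flies (Gal80ts; Tub> CR11538) and 3 from control flies (Gal80ts; Tub-Gal4/P{CaryP}attP40). All flies were adult males taken 12 h after M. luteus, a Gram-positive bacterium, was injected, and no uninfected library is among them. Every fly also carried Tub-Gal4, in which the tubulin promoter drives the yeast activator Gal4 in nearly all tissues, and Gal80ts, a temperature-sensitive repressor of Gal4 that was inactivated by moving the flies from a cool to a warm incubator for a day. The transgene sits at the single landing site that the control flies carry empty, so each difference below is one between genotypes of infected, warmed flies. The labels do not say whether the 3 libraries of a genotype came from separate cultures, and the p-values measure the spread between these libraries only.

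Long non-coding RNAs are transcripts without a long reading frame. Some act as RNA, by holding proteins or chromatin factors in place, some are the primary transcripts from which microRNAs or small nucleolar RNAs are cut, and for some it is the act of transcription beside a gene that matters. In Drosophila the best known is Hsromega, the heat shock RNA omega, whose nuclear transcript gathers hnRNP proteins into bodies called omega speckles. Most of the other genes described here carry only a CR number and have no established role.

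Each library held 18688260 to 19652500 counts in CR11538-overexpressing flies (median 18775947) and 17040432 to 19237306 in control flies (median 19217615). CR11538 itself, FBgn0017424 at chr3L:12129103-12131488 on the minus strand of dm6, carries the symbol asRNA:CR11538 in the annotation and so is not one of the 106. It had raw counts of 2291, 3358 and 3312 in the CR11538-overexpressing libraries, against 5, 2 and 5 in the control libraries. This is a log2 fold change of 9.47 (SE 0.25, edgeR adjusted p = 1.27e-07), so every library matched its label. The CR11538-overexpressing libraries differed more among themselves than the control libraries did. A chi-square statistic per gene, which is near 1 when only read sampling separates a pair of libraries, was 12.4 to 33.9 for pairs of the overexpressing genotype, with the highest value between replicates 1 and 3. It was 6.67 to 7.54 for pairs of control libraries.

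The 106 lncRNAs moved in both directions and mostly by little. By the quasi-likelihood test of edgeR on 13159 genes, with p-values adjusted by Benjamini-Hochberg over all of them, 24 lncRNAs were higher in CR11538-overexpressing flies than in control flies, 17 were lower and 65 did not pass an adjusted p of 0.05. Of all genes tested, 15.0% were higher and 14.2% were lower by the same test. With a change of more than 2-fold added, 5 lncRNAs were higher, where 3.43% of all tested genes were, and 2 were lower, where 1.23% of all tested genes were. The median log2 fold change was 0.06 over the lncRNAs and -0.01 over all genes tested, and 80 of the 106 had a log2 fold change between -0.5 and 0.5. Normalized counts, which are counts scaled to a common library size, did not overlap between the genotypes for 63 lncRNAs (59.4%), beside 45.2% of all genes tested. Among protein-coding genes at the same mean count, 1649 of 9909 were higher, 1703 were lower, and 50.5% did not overlap.

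These counts changed when 1 library was left out, which also left fewer replicates for every gene. The shares of all genes called in those fits are not given here. The number of higher lncRNAs was 15 without CR11538-overexpressing replicate 2, 15 without control replicate 1 and 15 without control replicate 2. The number of lower lncRNAs was 11 without CR11538-overexpressing replicate 2, and only 1 was lower by more than 2-fold without control replicate 3. A mean over both genotypes can pass the threshold on the strength of the higher genotype alone, and 19 of the 106 had a mean raw count under 100 in 1 genotype. The other 87 reached it in both. Of these 17 were higher (19.5%) and 13 were lower (14.9%), beside 15.0% higher and 14.2% lower of all genes tested. By more than 2-fold 1 was higher and 1 was lower, where 3.43% and 1.23% of all tested genes were.

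**Figure D1:**
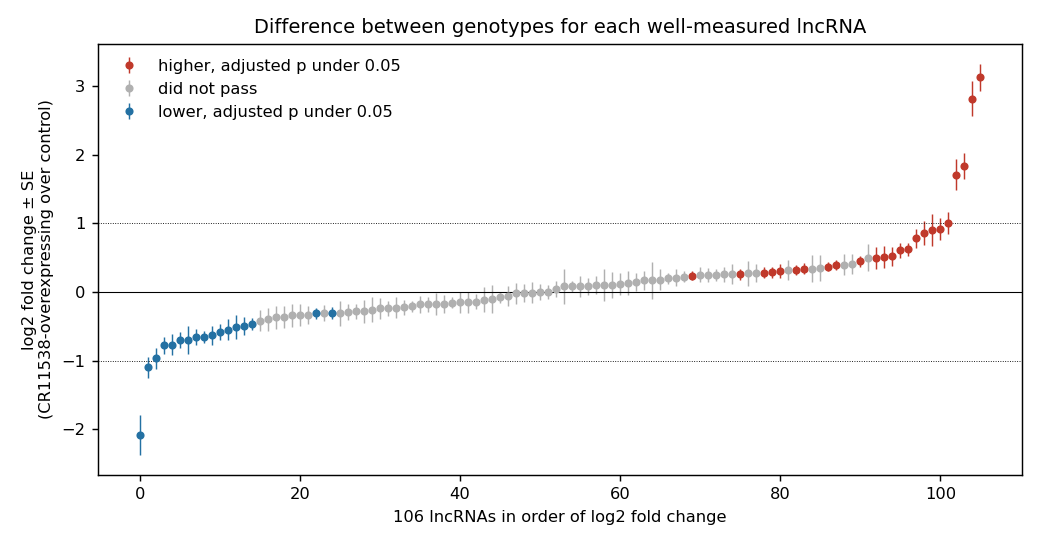
The log2 fold change of CR11538-overexpressing over control flies (vertical axis) is plotted with its SE for each of the 106 lncRNAs, in order of size (horizontal axis); dotted lines mark a 2-fold change. Red points are the 24 higher lncRNAs, blue points the 17 lower ones and grey points the 65 that did not pass, and most points lie between -0.5 and 0.5.

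The annotation of these genes is compact. Their exons add up to 300 to 21710 bp with a median of 865 bp, 64 are under 1 kb, and 57 consist of 1 exon block, 30 of 2 and 19 of 3 or more. The heading of intergenic and sense genes, under which they can be grouped by symbol, holds for most but not all of them. No protein-coding gene overlaps 62 of the 106, 22 lie over a protein-coding gene on the same strand, and 22 lie over one on the opposite strand only. An lncRNA over protein-coding genes on both strands, such as CR43196 or CR44779, was counted with the same strand. Exons of 11 share bases with exons of another gene, 5 of them on the opposite strand. The strand setting of the read counting is not given in the sources used here, so for these 5 the reads of the lncRNA and its partner cannot be told apart. For the 6 on the same strand, reads in the shared bases cannot be told apart under any strand setting. Of the 62 that overlap no protein-coding gene, 19 were higher and 10 were lower. Of the 22 on the same strand 3 were higher and 3 were lower, and of the 22 on the opposite strand 2 were higher and 4 were lower. The shares were 30.6% higher and 16.1% lower without overlap, 13.6% and 13.6% on the same strand, and 9.09% and 18.2% on the opposite strand, beside 15.0% higher and 14.2% lower of all genes tested.

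A few lncRNAs supplied most of the reads. Together the 106 took 0.429% ± 0.024 of all counts in CR11538-overexpressing flies and 0.44% ± 0.0168 in control flies (SD, n = 3 each). CR42862 alone gave 30.2% of the counts of the group, the 3 most counted gave 51.4% and the 10 most counted gave 69.4%. As reads per kilobase of exon scaled to library size (RPKM), which is the scale on which genes of different length can be compared, the median was 13.4 and the range was 1.05 to 239. CR42862 stood at the top with 239 RPKM over all libraries, ahead of CR31781 with 231 RPKM, CR9284 with 217 RPKM and CR32658 with 204 RPKM. Hsromega followed CR42862 and CR31781 in reads but had 13.8 RPKM over its 21710 bp.

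CR42862 (FBgn0262109, chr3L:224106-230964, plus strand) lies on the strand of CG33229 and shares exon bases with it. Its normalized counts were 21737, 23645 and 24457 in CR11538-overexpressing flies, against 24519, 27704 and 25586 in control flies. The genotypes just failed to touch, and the log2 fold change of -0.16 (SE 0.08) did not pass (edgeR adjusted p = 0.187). CG33229, the gene it overlaps, fell by 0.60 on the log2 scale (SE 0.08, edgeR adjusted p = 0.000994). CR31781 (FBgn0051781, chr2L:16869346-16878300, plus strand) had 10627, 9973 and 10532 normalized counts in CR11538-overexpressing flies, against 11558, 13676 and 13313 in control flies. All the overexpressing libraries were below all the control libraries, and CR31781 fell by 0.31 on the log2 scale (SE 0.08, edgeR adjusted p = 0.0195). Without CR11538-overexpressing replicate 2, control replicate 2 or control replicate 3 it no longer passed, with adjusted p-values of up to 0.0866.

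Of the 10 lncRNAs with a mean raw count of at least 1000, which include CR42862 and CR31781, 5 were higher and 1, CR31781, was lower, beside 15.0% higher and 14.2% lower of all genes tested. CR32652 (FBgn0052652, chrX:12411018-12412181, minus strand) had 3415, 2731 and 2803 normalized counts in CR11538-overexpressing flies, against 1934, 1912 and 1981 in control flies. The control libraries lay within a narrow band and every overexpressing library was well above it, a log2 fold change of 0.62 (SE 0.09, edgeR adjusted p = 0.00103). CR43239 (FBgn0265270, chr2L:17353730-17354668, minus strand) had 1989, 1471 and 1628 in CR11538-overexpressing flies, against 1149, 1157 and 1029 in control flies. It too was higher in every overexpressing library, by a log2 fold change of 0.61 (SE 0.11, edgeR adjusted p = 0.00306).

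CR42767 (FBgn0261835, chrX:9557539-9558466, minus strand), next to the gene of the endocytic receptor Cubn, had 1243, 1252 and 1112 normalized counts in CR11538-overexpressing flies, against 857, 831 and 959 in control flies. CR42767 was higher without overlap, with a log2 fold change of 0.45 (SE 0.08, edgeR adjusted p = 0.00305). CR32661 (FBgn0030356, chrX:11917806-11918678, minus strand) averaged 1628 ± 68.7 in CR11538-overexpressing flies and 1305 ± 92.1 in control flies (SD, n = 3 each), and rose with a log2 fold change of 0.32 (SE 0.07, edgeR adjusted p = 0.00865). CR32690 (FBgn0052690, chrX:10204400-10205289, plus strand) averaged 1589 ± 80.0 in CR11538-overexpressing flies and 1350 ± 107 in control flies, and passed narrowly at a log2 fold change of 0.24 (edgeR adjusted p = 0.0381). It lost the call under 6 of the alternatives, among them each fit without CR11538-overexpressing replicate 1 or 2 or control replicate 1 or 2, with adjusted p-values of up to 0.143. CR9284, with a log2 fold change of 0.20 (edgeR adjusted p = 0.0838), and CR32658, with 0.22 (edgeR adjusted p = 0.0584), did not pass although their genotypes did not overlap.

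The largest differences were in lncRNAs of modest abundance, and the choice by mean count has a part in this. CR46086, CR43452, CR44672 and CR43459 had a mean raw count under 100 in control flies, and CR42861 in CR11538-overexpressing flies. Those lncRNAs reached the threshold only through the genotype in which they were higher, so the sizes of their differences are a description of chosen genes. CR46086 (FBgn0267755, chr3R:27503393-27504101, minus strand, 709 bp in 1 exon block) had 183, 186 and 183 normalized counts in CR11538-overexpressing flies, against 17.6, 16.7 and 29.0 in control flies. The overexpressing libraries were nearly identical and far above the control libraries. The log2 fold change was 3.13 (SE 0.20, edgeR adjusted p = 2.65e-05), and it stayed between 2.99 and 3.42 in all 12 alternative fits. Its nearest protein-coding gene, CG5402, lies 437 bp away on the same strand and moved the other way, with a mean of 688 ± 60.8 in CR11538-overexpressing flies and 1369 ± 65.4 in control flies (SD, n = 3 each). CG5402 fell by 0.99 on the log2 scale (SE 0.08, edgeR adjusted p = 5.58e-05).

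CR43452 (FBgn0263406, chr3R:20678183-20679079, plus strand) had 360.4, 239.6 and 196 normalized counts in CR11538-overexpressing flies, against 35.1, 31.4 and 46.2 in control flies. Replicate 1 was the highest of the overexpressing libraries, and the lowest of them was still far above every control library, with a log2 fold change of 2.82 (SE 0.26, edgeR adjusted p = 0.000117). CG4000, 832 bp away on the opposite strand, rose as well, with a log2 fold change of 1.90 (SE 0.22, edgeR adjusted p = 0.000368) and means of 17139 ± 6273 in CR11538-overexpressing flies and 4581 ± 466 in control flies.

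CR44039 (FBgn0264831, chr3R:12268784-12270223, plus strand) lies within svp, the gene of an orphan nuclear receptor, on the same strand. It had 506, 382 and 406 normalized counts in CR11538-overexpressing flies, against 159, 89.4 and 116 in control flies. No library of one genotype reached the range of the other, and the log2 fold change was 1.83 (SE 0.19, edgeR adjusted p = 0.000209). For svp the log2 fold change was -0.18 (edgeR adjusted p = 0.078), so the gene around CR44039 did not pass the test. CR44672 (FBgn0265883, chr3L:18475298-18475679, plus strand) had 247, 225 and 173 normalized counts in CR11538-overexpressing flies, against 47.8, 57.9 and 92.3 in control flies. It was higher by a log2 fold change of 1.71 (SE 0.23, edgeR adjusted p = 0.000827), while Met75Ca, a male-specific transcript 2914 bp away on the opposite strand, had a log2 fold change of 0.33 and did not pass (edgeR adjusted p = 0.107).

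CR43459 (FBgn0263413, chr3R:10093761-10101356, plus strand) spans mir-277 and mir-34 and ends next to Fmr1, the gene of the fragile X RNA-binding protein. In flies mir-34 is known for its part in brain ageing and mir-277 for its control of branched-chain amino acid breakdown, and CR43459 covers the stretch from which both are cut. It had 204, 227 and 169 normalized counts in CR11538-overexpressing flies, against 107, 81.5 and 109.5 in control flies. The lowest overexpressing library was above the highest control library, and the log2 fold change was 1.01 (SE 0.16, edgeR adjusted p = 0.00193), at the edge of the 2-fold threshold and between 0.88 and 1.11 in the alternative fits. Over 7596 bp this is the least abundant of the 106 per length, with 1.40 RPKM in CR11538-overexpressing flies and 0.698 RPKM in control flies. Fmr1, 64 bp away on the opposite strand, had a log2 fold change of -0.04 (edgeR adjusted p = 0.629). The libraries were made from poly(A) RNA, which does not hold the mature microRNAs.

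**Figure D2:**
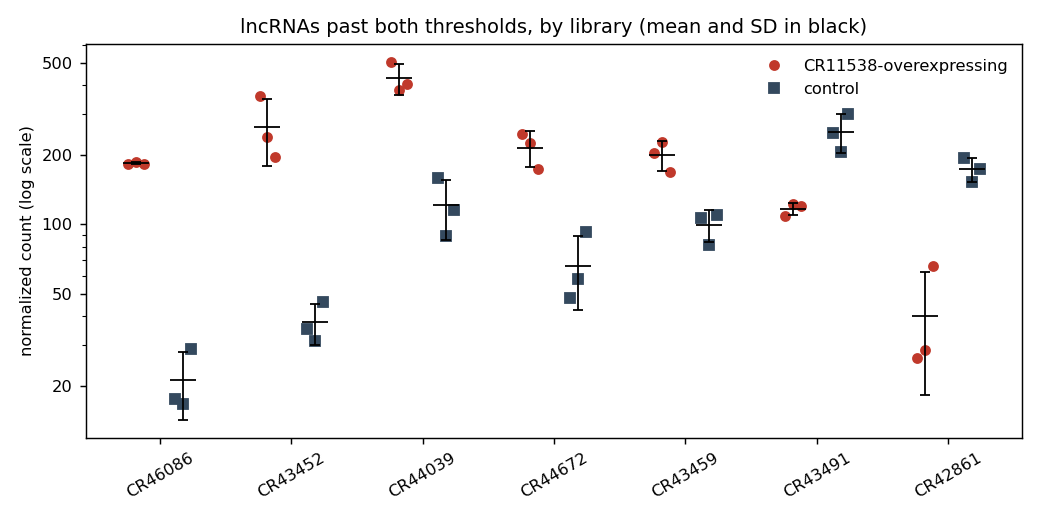
Normalized counts on a log scale (vertical axis) are plotted for each library of the 7 lncRNAs that passed both thresholds, with CR11538-overexpressing flies as red circles left of control flies as dark squares, and the mean and SD in black (n = 3 each). The genotypes are apart in all 7, and the widest relative spread is that of CR42861 in CR11538-overexpressing flies, where 1 library had 65.8 and the others 26.5 and 28.7.

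Among the lncRNAs that were lower, CR42861 and CR43491 passed the 2-fold threshold, and both are on the X chromosome. CR42861 (FBgn0262108, chrX:13744928-13745476, plus strand) had 26.5, 28.7 and 65.8 normalized counts in CR11538-overexpressing flies, against 194, 152 and 173 in control flies. Replicate 3 of the overexpressing genotype was above the other two but less than any control library. CR42861 fell by 2.09 on the log2 scale (SE 0.29, edgeR adjusted p = 0.000942), and leaving out 1 library at a time or changing the fit kept the log2 fold change between -2.64 and -1.86. Pdcd4, 101 bp away on the opposite strand, differed by a log2 fold change of -0.09 (edgeR adjusted p = 0.317).

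CR43491 (FBgn0263502, chrX:17378376-17379004, minus strand) had 109, 123 and 120.1 normalized counts in CR11538-overexpressing flies, against 249.6, 205 and 301 in control flies. The overexpressing libraries were close together and below all control libraries. CR43491 fell by 1.10 on the log2 scale (SE 0.15, edgeR adjusted p = 0.000918), and without control replicate 3 the log2 fold change was -0.95. Its nearest protein-coding gene, the homeobox gene B-H1, is 18474 bp away. CR45013, which lies across an exon of the phosphodiesterase gene Pde1c on the opposite strand, came next with 157, 249 and 249 in CR11538-overexpressing flies, against 382, 453 and 445 in control flies. It fell by 0.97 on the log2 scale (SE 0.16, edgeR adjusted p = 0.0026), while Pde1c had a log2 fold change of 0.09 (edgeR adjusted p = 0.406).

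CR43456 (FBgn0263410, chr3R:25501827-25502577, minus strand) had 126, 118 and 128 normalized counts in CR11538-overexpressing flies, against 215, 195 and 194 in control flies. Both genotypes were tight, and CR43456 fell by 0.70 on the log2 scale (SE 0.11, edgeR adjusted p = 0.00192). CR46035, which crosses osa, the gene of a subunit of the Brahma chromatin remodelling complex, on the opposite strand, fell by 0.77 on the log2 scale (SE 0.15, edgeR adjusted p = 0.00475). There osa fell too, by 0.29 on the log2 scale (SE 0.06, edgeR adjusted p = 0.00993).

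CR42491 (FBgn0259993, chrX:762615-763810, minus strand) is the only one of the 106 with an annotated small nucleolar RNA inside it, snoRNA:Psi18S-531, and it lies on the strand of RpL22, the gene of a protein of the large ribosomal subunit, with shared exon bases. Small nucleolar RNAs guide the chemical modification of ribosomal RNA and are cut from the introns of host transcripts. CR42491 had 217, 209 and 211 normalized counts in CR11538-overexpressing flies, against 336, 309 and 361 in control flies. The overexpressing libraries agreed closely and were below all control libraries, and CR42491 fell by 0.66 on the log2 scale (SE 0.09, edgeR adjusted p = 0.00114). RpL22 averaged 6156 ± 228 in CR11538-overexpressing flies and 7462 ± 113 in control flies (SD, n = 3 each), and fell by 0.28 on the log2 scale (SE 0.06, edgeR adjusted p = 0.0104).

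Genes of the proteins that small nucleolar RNAs work with were lower as well. Of 7 measured snoRNP protein genes 6 were lower (85.7%) and none was higher, beside 14.2% lower and 15.0% higher of all genes tested. The median log2 fold change of the 7 was -0.63, beside -0.01 over all genes tested, and between 5 and 7 were lower in the alternative fits. Nop60B, the pseudouridine synthase of these particles, averaged 362 ± 44.1 in CR11538-overexpressing flies and 609.6 ± 48.1 in control flies, and fell by 0.75 on the log2 scale (edgeR adjusted p = 0.000928). The core protein nop5 fell by 0.74 on the log2 scale (edgeR adjusted p = 0.000416). The methyltransferase Fib had a log2 fold change of -0.29 and did not pass (edgeR adjusted p = 0.082). Of 8 genes of RNA surveillance, the pathway that degrades many spliced host transcripts, 3 were lower (37.5%) and none was higher. The shares over all genes tested were 14.2% lower and 15.0% higher. Upf2 was 1 of the 3 and fell by 0.33 on the log2 scale (edgeR adjusted p = 0.0075).

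Only 3 of the 106 hold an annotated microRNA: CR43459, Hsromega, which holds mir-4951, and CR43650. The last of these, CR43650 (FBgn0263659, chr2R:16829095-16839494, plus strand), spans mir-8, the fly member of the miR-200 family. It had 1161, 605 and 647 normalized counts in CR11538-overexpressing flies, against 904, 718 and 624 in control flies. The genotypes overlapped and replicate 1 was the highest library in each of them. The log2 fold change was 0.10 (SE 0.23, edgeR adjusted p = 0.781), and across the alternative fits it ran from -0.26 to 0.27.

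Hsromega (FBgn0001234, chr3R:21296127-21317836, plus strand) is transcribed strongly when flies are heated, together with the genes of the heat shock proteins. Its normalized counts were 4901, 5176 and 5583 in CR11538-overexpressing flies, against 5783, 5914 and 6461 in control flies. Every overexpressing library was below every control library, but the log2 fold change of -0.21 (SE 0.08) did not pass the test (edgeR adjusted p = 0.0599). Over the alternative fits it ran from -0.27 to -0.16, and without CR11538-overexpressing replicate 3 it passed (edgeR adjusted p = 0.0282). The gene next to it, aus, 464 bp away on the opposite strand, fell by 0.21 on the log2 scale (SE 0.06, edgeR adjusted p = 0.0244).

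In the same libraries most heat shock protein genes were higher. Of 17 measured, 13 were higher and none was lower, beside 15.0% higher and 14.2% lower of all genes tested. By more than 2-fold 10 rose, where 3.43% of all tested genes did. The median log2 fold change of the 17 was 1.99, beside -0.01 over all genes tested. Hsp70Bb, one of the copies of the main inducible chaperone gene, averaged 2059 ± 589 in CR11538-overexpressing flies and 139.8 ± 39.1 in control flies, with a log2 fold change of 3.89 (edgeR adjusted p = 2.65e-05). The Hsp70 copies are near identical, and how the counting divided reads between them is uncertain. Hsp68 was higher by a log2 fold change of 1.99 (edgeR adjusted p = 0.000193) and the small heat shock gene Hsp23 by 3.27 (edgeR adjusted p = 0.000117). Hsf, the gene of the transcription factor that drives these genes, had a log2 fold change of -0.09 (edgeR adjusted p = 0.33). Of 10 genes of omega speckle proteins 2 were lower and none was higher: sqd, an hnRNP, fell by 0.42 on the log2 scale (edgeR adjusted p = 0.00122) and rump by 0.24 (edgeR adjusted p = 0.0186). Of the list of 18 heat shock genes only Hsp22 had 0 counts in every library.

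**Figure D3:**
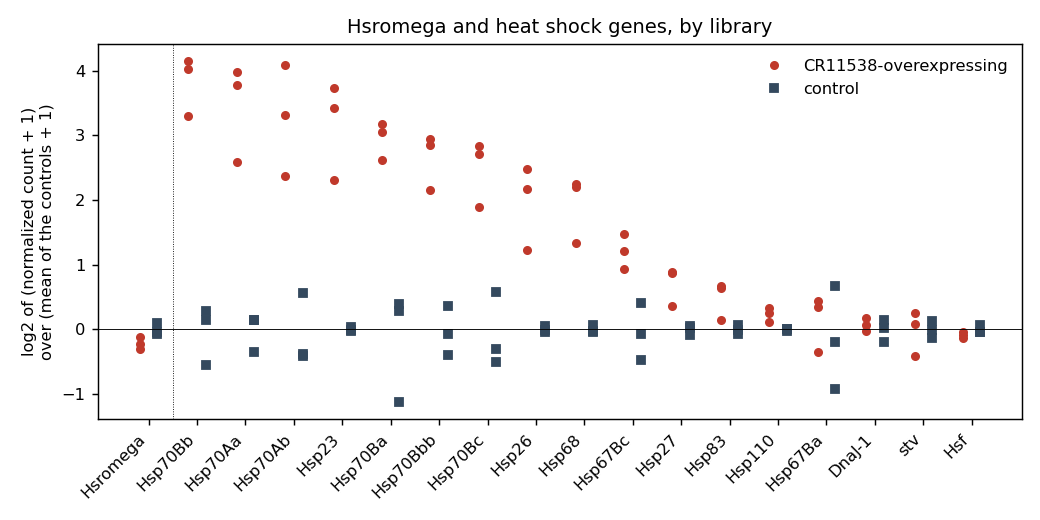
For Hsromega (left of the dotted line) and 17 heat shock genes, each library's normalized count plus 1 is plotted as a log2 ratio to the mean of the control libraries plus 1, with CR11538-overexpressing flies as red circles left of control flies as dark squares. Hsromega sits just under 0 in CR11538-overexpressing flies, while 13 of the 17 heat shock genes are higher there.

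The remaining members with names rather than numbers are noe and mimi. For noe (FBgn0026197, chr3L:17400272-17401348, minus strand), which lies within blot on the same strand, the normalized counts were 507, 554 and 853 in CR11538-overexpressing flies, against 966, 907 and 851 in control flies. Replicate 3 of the overexpressing genotype reached the lowest control library, so the genotypes overlapped. The log2 fold change was -0.51 (SE 0.17, edgeR adjusted p = 0.0458), a call that was lost under 6 of the 12 alternatives, with adjusted p-values of up to 0.16: library size as the only scaling, and each fit that left out 1 library other than CR11538-overexpressing replicate 3. Without CR11538-overexpressing replicate 3 the log2 fold change was -0.78 (edgeR adjusted p = 6.19e-05). For mimi (FBgn0051451, chr3R:23983503-23985065, plus strand), the counts were 451, 472 and 468 in CR11538-overexpressing flies, against 425, 470.4 and 421 in control flies. These overlapped, with a log2 fold change of 0.08 (edgeR adjusted p = 0.492).

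By chromosome, the share of higher lncRNAs was larger on the X than on the autosomes, which is a description without a test. Of 21 on the X, 10 were higher and 3 were lower, while 15.0% of all tested X genes (302 of 2009) were higher and 403 were lower. Of 85 on the autosomes, 14 were higher and 14 were lower (16.5% each), near the 15.0% higher and 13.2% lower of all tested autosomal genes. The plot by chromosome arm sets the following counts beside the shares over all tested genes. On 2L the counts were 2 higher and 3 lower of 19, and on 2R 5 higher and 2 lower of 20. On 3L they were 2 higher and 6 lower of 25, and on 3R 5 higher and 3 lower of 19. Among all tested genes of 2L, 2R, 3L and 3R, the higher share ran from 14.6% (3R) to 16.1% (3L). The lower share over the same genes ran from 11.4% (3L) to 14.6% (3R). Neither of the 2 lncRNAs on chromosome 4 passed, where 14.1% of all tested genes were higher and 7.61% lower. The median log2 fold change of the X-linked lncRNAs was 0.25, beside -0.05 for all tested X genes. The 3 lower ones are CR42861, CR43491 and CR42491, and no X-linked lncRNA was more than 2-fold higher. The X count rests partly on small differences: 6 of 21 were higher without control replicate 1, without control replicate 2 or with library size as the only scaling.

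**Figure D4:**
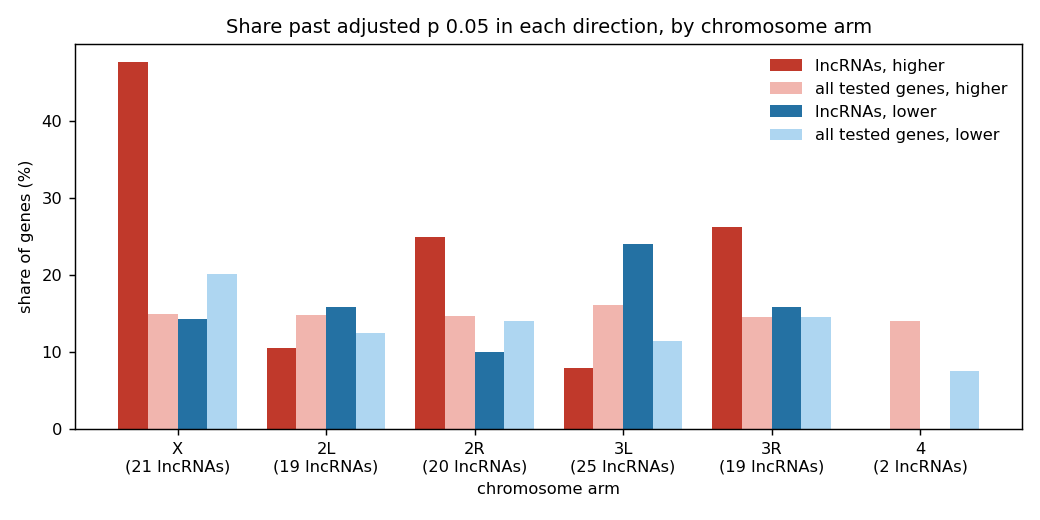
The share of genes past an adjusted p of 0.05 (vertical axis, percent) is drawn for each chromosome arm: higher lncRNAs in dark red, all higher tested genes in pale red, lower lncRNAs in dark blue and all lower tested genes in pale blue. On the X, 47.6% of 21 lncRNAs were higher, beside 15.0% of all tested X genes, and no lncRNA on chromosome 4 passed.

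In male flies the X is the chromosome on which the dosage compensation complex acts, a ribonucleoprotein built on the RNAs roX1 and roX2. Of its 7 measured genes 3 were lower (42.9%) and none was higher, beside 14.2% lower and 15.0% higher of all genes tested. For roX1, which is not one of the 106, the mean was 6360.1 ± 420 in CR11538-overexpressing flies and 7844 ± 416 in control flies (SD, n = 3 each), and roX1 fell by 0.30 on the log2 scale (edgeR adjusted p = 0.0151). For roX2 the mean was 318 ± 20.5 in CR11538-overexpressing flies and 267 ± 32.7 in control flies, a log2 fold change of 0.25 that did not pass (edgeR adjusted p = 0.119). The helicase gene mle fell by 0.27 on the log2 scale (edgeR adjusted p = 0.0104) and msl-1 by 0.31 (edgeR adjusted p = 0.0248). Whether these genes have a part in the X-linked lncRNA differences was not tested.

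Some of the lncRNAs lie close together, and there are 10 pairs of neighbours within 10 kb of each other. On the X, CR32661 and CR43157 lie 446 bp apart on the minus strand, and both were higher. CR43157 had 520.3, 465 and 450.3 normalized counts in CR11538-overexpressing flies, against 219, 292 and 326 in control flies, and rose by a log2 fold change of 0.78 (SE 0.14, edgeR adjusted p = 0.00309). CR32657 and CR32658 lie within Ten-a, the gene of a teneurin cell-surface protein, on its strand. CR32657 averaged 1128 ± 81.7 in CR11538-overexpressing flies and 859 ± 38.5 in control flies and rose by a log2 fold change of 0.39 (SE 0.07, edgeR adjusted p = 0.00399), whereas Ten-a had a log2 fold change of -0.09 (edgeR adjusted p = 0.429).

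On 3L, 4 lncRNAs follow one another beside caps, the gene of a leucine-rich repeat adhesion protein. Sfp70A4, the gene of a seminal fluid protein, lies between CR43912 and CR45253. CR43913 (FBgn0264514, chr3L:13283663-13284496, minus strand) had 96.7, 85.2 and 92.0 normalized counts in CR11538-overexpressing flies, against 148, 164 and 158 in control flies. It was lower without overlap and fell by 0.78 on the log2 scale (SE 0.13, edgeR adjusted p = 0.00214). CR45253 fell by 0.63 on the log2 scale (SE 0.14, edgeR adjusted p = 0.00973). CR43912 fell by 0.70 (SE 0.21, edgeR adjusted p = 0.0344), a call lost under 4 of the alternatives that leave out 1 library, with an adjusted p of up to 0.137. CR43913, CR45253 and CR43912 each had a mean raw count under 100 in CR11538-overexpressing flies. They reached the threshold only through the control flies, so the sizes of their falls are a description of chosen genes. CR43146, at the caps end, had a log2 fold change of -0.18 (edgeR adjusted p = 0.417). At that end of the row caps fell by 0.24 on the log2 scale (edgeR adjusted p = 0.018). Within the row Sfp70A4 had a log2 fold change of 0.05 (edgeR adjusted p = 0.799). On 2R the pair CR30055 and CR43909 went apart: CR30055, across the corepressor gene Sin3A, fell by 0.31 on the log2 scale (edgeR adjusted p = 0.0235), and CR43909, across Amph, rose by 0.51 (edgeR adjusted p = 0.0381). Both calls were lost under some alternatives, with adjusted p-values of up to 0.102 for CR30055 (among others without CR11538-overexpressing replicate 2 or control replicate 1) and up to 0.128 for CR43909 (in each fit that left out 1 library other than CR11538-overexpressing replicate 1). CR43909 had a mean raw count under 100 in control flies, so it reached the threshold only through CR11538-overexpressing flies.

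Against their nearest protein-coding genes the lncRNAs showed little common movement. A protein-coding gene overlapped 44 of the 106, lay within 1 kb of 33 others, between 1 and 10 kb from 20 and beyond 10 kb from 9. Of the 101 nearest genes with a test, 95 are distinct, and across these pairs of genes, which come from the same 6 libraries and are not replicates, the Pearson correlation of the log2 fold changes was 0.10 and the Spearman correlation 0.06. Of the 40 lncRNAs that passed and have a tested neighbour, 8 moved in the direction of a neighbour that also passed and 6 against one, and for 26 the neighbour did not pass. The counts of CR43417 and its neighbour went in opposite directions. CR43417 was higher with a log2 fold change of 0.50 (edgeR adjusted p = 0.0411). CG5550, whose exons it crosses on the opposite strand, fell by 1.54 on the log2 scale (SE 0.30, edgeR adjusted p = 0.00552). With the strand setting not given, the reads of this pair cannot be told apart. The genotypes of CR43417 overlapped, with normalized counts of 638 in the lowest overexpressing library and 652 in the highest control library. The call of CR43417 was lost in each fit that left out 1 library other than CR11538-overexpressing replicate 3, with an adjusted p of up to 0.141.

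**Figure D5:**
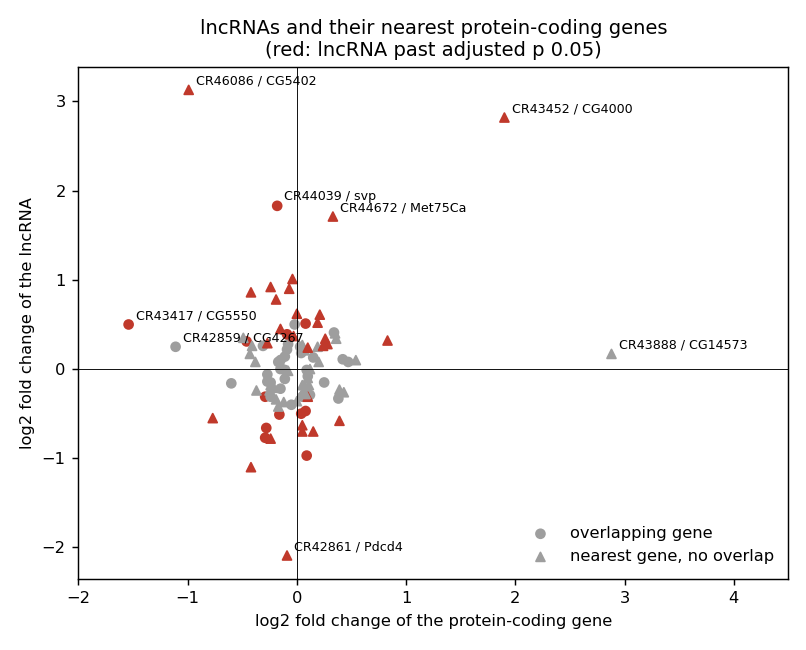
The log2 fold change of each lncRNA (vertical axis) is plotted against that of the protein-coding gene that overlaps it (circles) or lies nearest (triangles) for the 101 pairs in which both were tested, with lncRNAs past an adjusted p of 0.05 in red. The points scatter around both axes, and the named pairs at the edges include CR46086 with CG5402 in opposite directions and CR43452 with CG4000 in the same direction.

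Within a genotype the median spread of the lncRNAs was larger than that over all well-counted genes, which include them. The median coefficient of variation, the SD as a percent of the mean, was 9.56% in CR11538-overexpressing flies and 10.9% in control flies. Over all 10230 genes with a mean count of at least 100 it was 7.42% in CR11538-overexpressing flies and 6.02% in control flies, without matching on level. The biological coefficient of variation is the estimate by edgeR of spread beyond read sampling. Its median was 0.111 for lncRNAs with a mean of 100 to 300, 0.0825 from 300 to 1000 and 0.0817 from 1000. For protein-coding genes with a mean of at least 100 it was 0.0812. The widest spread was 54.8% for CR42861 in CR11538-overexpressing flies. CR32368 (FBgn0052368, chr3L:7915437-7915846, plus strand) had 759.6, 1034 and 1254 normalized counts in CR11538-overexpressing flies, against 429, 756 and 442 in control flies. The highest control library came within a few counts of the lowest overexpressing one. CR32368 was higher by a log2 fold change of 0.90 (SE 0.23, edgeR adjusted p = 0.0166), and lost the call without CR11538-overexpressing replicate 2, control replicate 1 or control replicate 3, with an adjusted p of up to 0.0731. CR43888 had 168, 115 and 80.4 in CR11538-overexpressing flies, against 85.8, 98.2 and 139.6 in control flies, and its log2 fold change of 0.17 did not pass (edgeR adjusted p = 0.683). Its neighbour CG14573 was higher by a log2 fold change of 2.88 (SE 0.49, edgeR adjusted p = 0.00245).

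The other lncRNAs that were higher by the test are mostly intergenic. CR42715, 426 bp from Mtkl, a gene related to the antimicrobial peptide gene Metchnikowin, had 123, 149.5 and 134 normalized counts in CR11538-overexpressing flies, against 81.9, 68.7 and 63.4 in control flies. It was higher without overlap, with a log2 fold change of 0.92 (SE 0.16, edgeR adjusted p = 0.00272), while Mtkl had a log2 fold change of -0.24 (edgeR adjusted p = 0.26). CR45517 on the X had 120.1, 159 and 140.4 in CR11538-overexpressing flies, against 93.6, 73.7 and 63.4 in control flies. It was higher by a log2 fold change of 0.86 (SE 0.18, edgeR adjusted p = 0.00731), and CG16756, 266 bp away on its strand, fell by 0.42 on the log2 scale (edgeR adjusted p = 0.0439). CR42715 and CR45517 each had a mean raw count under 100 in control flies. Both reached the threshold only through CR11538-overexpressing flies, so the sizes of their rises are a description of chosen genes.

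CR42850 had 1055, 1024 and 1086 normalized counts in CR11538-overexpressing flies, against 783, 789.5 and 875 in control flies. The genotypes were clearly apart at a log2 fold change of 0.37 (SE 0.07, edgeR adjusted p = 0.00377), and its nearest protein-coding gene is nompC, the gene of a mechanosensory channel, 13335 bp away. CR43424, with 0.52, CR44389, with 0.34, and CR42657, with 0.29, were also higher on the log2 fold change scale, and so were CR33218 (0.31), CR43278 (0.28) and CR44455 (0.26). Each of these 6 lost the call without at least 1 library, among them control replicate 2 in every case. CR33218 was the closest to the threshold (edgeR adjusted p = 0.0499). With DESeq2 the call was lost for CR33218, CR43278 and CR44455 (DESeq2 adjusted p = 0.0749, 0.0517 and 0.0574).

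Among the lncRNAs that were lower by the test, CR45113 had 216, 236 and 251 normalized counts in CR11538-overexpressing flies, against 328, 359 and 427 in control flies. All overexpressing libraries were below all control libraries, and CR45113 fell by 0.66 on the log2 scale (SE 0.12, edgeR adjusted p = 0.00327). CR43404 fell by 0.58 on the log2 scale (SE 0.12, edgeR adjusted p = 0.00828), and CR43196, which overlaps lute on the opposite strand, fell by 0.47 (SE 0.09, edgeR adjusted p = 0.00379). CR44643 fell by 0.55 (edgeR adjusted p = 0.0195) and CR43978, which crosses an exon of the seminal fluid protein gene Sfp78E on the opposite strand, by 0.50 (edgeR adjusted p = 0.0178). Both lost the call without CR11538-overexpressing replicate 2 and without control replicate 3, and CR43978 also without control replicate 2. The largest difference among the 65 that did not pass was that of CR43151, with a log2 fold change of 0.50 (edgeR adjusted p = 0.0874), which passed among others without CR11538-overexpressing replicate 1 and without control replicate 3.

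Below the threshold fewer lncRNAs could be called. Of the 1689 lncRNA genes with a lower mean count, 730 were tested, 44 were higher (6.03%) and 21 were lower (2.88%). Among all genes tested 15.0% were higher and 14.2% lower. Of 465 genes with an asRNA symbol 117 were tested, 9 were higher (7.69%), CR11538 among them, and 3 were lower (2.56%). Within the 106, again beside 15.0% higher and 14.2% lower of all genes tested, 9 of the 74 with a mean raw count of 100 to 300 were higher and 11 lower, and 10 of the 22 with a mean of 300 to 1000 were higher and 5 lower.

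Whole flies hold many tissues, and lncRNAs are often made in 1 of them, so the lists of tissue markers are given beside these values. Fewer cells of a type and less RNA per cell cannot be told apart in such libraries. The counts below stand beside 15.0% higher and 14.2% lower of all genes tested. Of 17 measured testis markers 7 were higher and none was lower, with summed normalized counts of 116636 to 129749 in CR11538-overexpressing flies and 102021 to 110593 in control flies. All 7 muscle markers were higher, with sums of 195960.1 to 343385 in CR11538-overexpressing flies and 86847 to 113907 in control flies. All 8 markers of epidermis and cuticle were higher, with sums of 13168 to 24998 in CR11538-overexpressing flies and 1765 to 2135 in control flies. In these lists CR11538-overexpressing replicate 1 was the highest library.

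Other lists moved less evenly, again beside 15.0% higher and 14.2% lower of all genes tested. Accessory gland markers were higher for 3 and lower for 1 of 9, with sums of 40034 to 46506 in CR11538-overexpressing flies and 30739 to 37983 in control flies, and Acp95EF was at 0 in every library. Of 11 nervous system markers 1 was higher (9.09%) and none was lower, with sums of 21656 to 21922 in CR11538-overexpressing flies and 20186 to 21406 in control flies. Of 8 eye markers 2 were higher and none was lower, with sums of 95590.5 to 131254 in CR11538-overexpressing flies and 113088 to 115739 in control flies. Fat body markers were higher for 4 and lower for 1 of 6, with sums of 36676 to 69368 in CR11538-overexpressing flies and 25122 to 34028 in control flies. Gut markers were higher for 4 and lower for 1 of 8, with sums of 115633 to 153857 in CR11538-overexpressing flies and 113345 to 138561 in control flies. Hemocyte markers were higher for 5 of 7 and lower for none, with sums of 19624 to 28250 in CR11538-overexpressing flies and 15063 to 16206 in control flies. None of 4 tested female germline markers passed, and their list summed to 91.0 to 103 counts in CR11538-overexpressing flies and 93.3 to 128 in control flies. The part of these tissues in the lncRNA differences was not tested.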

How the data were processed

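Whole adult male flies were sequenced in 6 libraries, 3 of each genotype as the submitters' labels give them. The authors purified poly(A) RNA, aligned paired reads to dm6 with HISAT2 2.0.5, ran featureCounts 1.5.0-p3 and deposited its raw counts per gene, neither normalized nor pooled. No strand setting or annotation release is named for this step in the sources used here. Ensembl release 115 gave symbols, exons and coordinates, and named 17252 of 17558 identifiers; the 306 others held 3.67% of the counts.

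Differences between genotypes were computed from the deposited counts with edgeR 4.0.16 (R 4.3.3): 13159 genes passed filterByExpr, library sizes were scaled by TMM, and genotype was the only term of the quasi-likelihood test. All 106 lncRNAs passed the filter. The scripts were tested on simulated data. Python 3.11.15, pandas 2.3.3, numpy 2.4.6 and matplotlib 3.10.9 were used for tables and figures. Normalized counts are TMM-scaled counts, means are given with the SD, and RPKM uses the summed exon length. Each pair of replicates differed beyond read sampling noise, and all 6 libraries were used. Library totals of 17040432 to 19652500 set the precision, and the median lncRNA had a mean of 165 reads.

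The lncRNAs and gene lists were chosen with earlier results of these data known. Named are the lncRNAs with a name other than a CR number, the 10 of highest level, the up to 10 largest changes past 2-fold in each direction without overlap, the 5 of lowest adjusted p in each direction, the 5 of largest spread, and their nearest protein-coding genes. CR45013, CR46035, CR43157, CR32657, CR43912, CR45253, CR43146, CR30055, CR43909, CR43417, CR43151 and the other lncRNAs past the threshold were named after their values were seen. Of listed genes, those under a symbol in the annotation were used. Alternatives were DESeq2 1.42.0, edgeR with DESeq2 size factors or with library size alone, no filter on low counts or a minimum of 10 per library, a replicate block, the omission of 1 library at a time, and other thresholds on the mean count.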

Additional observations from a re-analysis of the deposited data

How the results depend on the processing

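Of the 41 lncRNAs past the threshold, 25 remained past it in all 12 alternative fits (14 higher, 11 lower), 16 lost the call in at least 1, and 12 others gained one in at least 1. None of the 41 changed direction. Leaving out 1 library at a time gave 15 to 24 higher and 11 to 18 lower lncRNAs, with 4 to 7 more than 2-fold higher and 1 to 3 more than 2-fold lower. DESeq2 gave 19 higher and 16 lower, and library size as the only scaling 18 and 16. Another threshold on the mean count changes which lncRNAs are counted: at 50 (239 genes) 10 were more than 2-fold higher, at 200 (45 genes) 8 were lower, 1 was more than 2-fold higher and 0 more than 2-fold lower, and at 100 in each genotype (87 genes) 1 was more than 2-fold higher and 1 more than 2-fold lower. With the replicate block 25 were higher, 18 lower, 5 more than 2-fold higher and 2 more than 2-fold lower, with 4 calls gained (Hsromega, CR32658, CR43151 and CR41443, edgeR adjusted p = 0.0326, 0.0236, 0.0299 and 0.0496) and 2 lost (CR43909 and CR44455, 0.0512 and 0.0517). The labels tie equal replicate numbers to nothing shared, and deviations of same-numbered libraries correlated by 0.126, 0.0336 and 0.0654, so the numbers were not taken to pair the samples. Control replicate 2 correlated better with CR11538-overexpressing replicate 3 (0.048) than with its own number. Scaling alternatives moved the median log2 fold change of all genes by 0.02 at most. The smallest difference that passed was 0.24 on the log2 scale, for CR32690 with a mean raw count of 1468.5; among lncRNAs with a mean under 300 it was a fall by 0.50, for CR43978.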
